A study of Mus musculus with 16 samples.

Results

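C2C12 is a mouse skeletal muscle cell line that proliferates as myoblasts in growth medium and, in differentiation medium, leaves the cell cycle, fuses and builds contractile fibres. The comparison described here is that of the genotype labels among differentiating cells with the empty vector. It set the 2 libraries labelled MYOD-/- EV DM against the 2 labelled WT EV DM, which are 4 of the 16 poly(A) RNA libraries of the series, chosen by their labels alone. All 4 came from C2C12 cells carrying a control vector (EV) and taken under differentiation (DM, also written DM3). The MYOD-/- cells had been made with CRISPR-Cas9 and screened as single cells. How many clones were used, and which stretch of Myod1 was removed, is not stated in the labels. The other libraries hold proliferating cells (GM) and cells with a vector for spliced MUNC. MUNC is a noncoding RNA transcribed upstream of Myod1.

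MyoD is a basic helix-loop-helix factor that binds E-boxes (CANNTG) and opens the muscle gene programme. It acts upstream of myogenin, which drives terminal differentiation, while MEF2 factors act with both. Sarcomere proteins, calcium-handling proteins, acetylcholine receptor subunits and the fusion proteins myomaker and myomixer are made as the cells differentiate.

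Myod1, the gene that the labels name as deleted, went against those labels. Its estimated counts were 13 and 1 in the libraries labelled WT (0.143 and 0.0136 CPM, counts scaled to the size of each library by the TMM method) and 1271 and 1858 in those labelled MYOD-/- (24.4 and 33.1 CPM). Both MYOD-/- labelled libraries therefore lay far above both WT-labelled ones, with a log2 fold change of 8.40 ± 0.81 (SE) and an adjusted p of 3.91e-05 in edgeR's quasi-likelihood test. The gene lies at 46376474 to 46379092 of chromosome 7 (GRCm38). In proliferating EV cells Myod1 was at 0.291 and 0.0191 CPM under the WT label against 13.9 and 11.9 CPM (log2 fold change 6.29, adjusted p = 3.85e-04, edgeR). In differentiating MUNC cells it was at 3.18 and 1.7 CPM against 16 and 15 CPM (2.68, adjusted p = 0.00676). The cause of its low counts under the WT label was not tested. Counts over the whole gene cannot show whether a transcript with a small deletion is present, and the labels are used below as given, so that every direction is that of the libraries labelled MYOD-/- relative to the libraries labelled WT. Of the 12 skeletal muscle markers, 9 were higher in the MYOD-/- labelled libraries and 0 were lower, and their summed level per length was 220 and 152 TPM (a unit scaled to transcript length and to a common total) under the WT label against 996 and 1004 TPM under the MYOD-/- label. MUNC, listed as Gm45923, was at 8.95 and 1.15 CPM under the WT label and at 12.4 and 2.23 CPM under the MYOD-/- label. The groups overlapped, since replicate 1 was the higher in each (log2 fold change 0.52 ± 1.12, SE, adjusted p = 0.756).

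Of 14972 genes tested, 4699 (31.4%) passed an adjusted p of 0.05, 2289 (15.3%) higher and 2410 (16.1%) lower in the MYOD-/- labelled libraries. These shares of all genes are the ones to set beside the counts of each gene list below. The median log2 fold change over all genes tested was -0.02. In 10426 genes (69.6%) both libraries of one label lay above both of the other. Among the called genes, 733 (4.9% of genes tested) were higher and 528 (3.53%) lower by more than 4-fold. The 4 libraries held 83882629 and 74050287 estimated counts under the WT label and 49896114 and 58844498 under the MYOD-/- label, and the 16 ranged from 35832002 to 107732971. The labels do not tie replicates to separate cultures, and p-values therefore reflect only how far these libraries spread, which may be technical. Zrsr1 held 5.45% and 7.2% of the counts in the replicate 2 libraries compared here, and 0.00792% and 0.0126% in the replicate 1 libraries. The number of calls was 2723 without WT-labelled replicate 2, 2633 without MYOD-/- labelled replicate 1 and 2606 without MYOD-/- labelled replicate 2. By limma, fitted to log2(TPM + 1), 2838 genes were higher and 1955 lower.

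**Figure D1:**
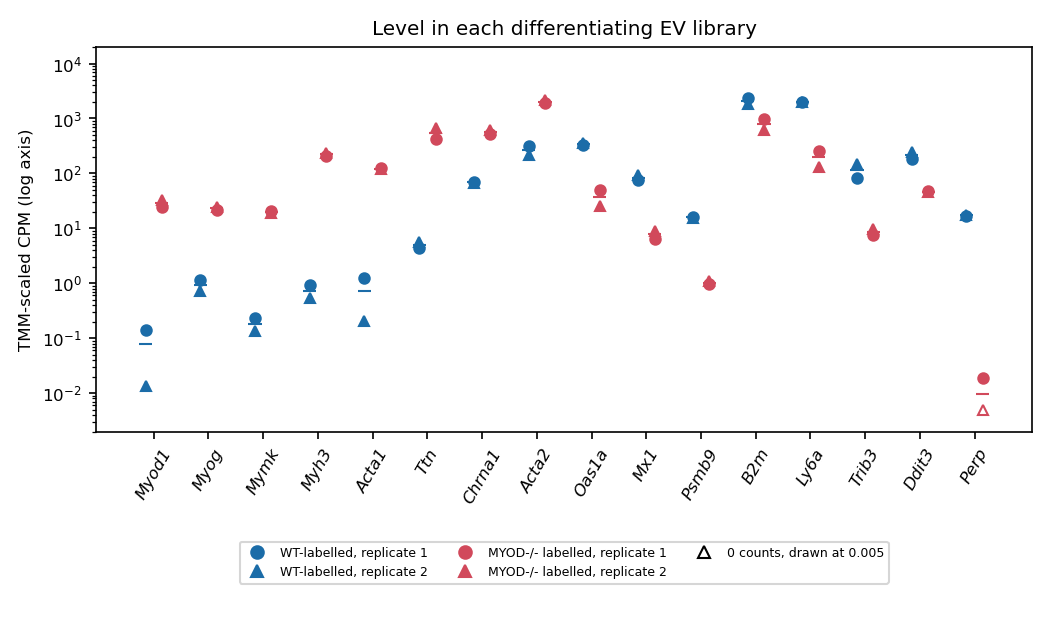
TMM-scaled CPM on a log axis in each of the 4 differentiating EV libraries for 16 genes, with circles for replicate 1, triangles for replicate 2 and short bars for group means of 2. Muscle genes from Myod1 to Acta2 lie higher under the MYOD-/- label, and Oas1a to Perp lie lower, with no overlap of the groups in any gene drawn.

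Among the 20 myogenic regulators tested of 24 listed, 8 were higher and 1 was lower, with a median log2 fold change of 0.73. Myog, the gene of myogenin, was at 1.16 and 0.733 CPM under the WT label and at 22 and 24.2 CPM under the MYOD-/- label (log2 fold change 4.60 ± 0.59, SE, adjusted p = 2.44e-04, edgeR). Rbm20, a splicing factor of titin and other muscle transcripts, was at 37.3 and 37.5 CPM against 140 and 125 CPM (1.82 ± 0.20, adjusted p = 8.55e-05). Both regulators were higher in each MYOD-/- labelled library than in either WT-labelled one. Myf5, the myogenic factor of committed myoblasts, was at 86 and 78.9 CPM under the WT label and at 83.4 and 83.7 CPM under the MYOD-/- label, a log2 difference of 0.02 ± 0.24 (SE, adjusted p = 0.962). Of the higher regulators, 4 passed without WT-labelled replicate 2 and 5 without MYOD-/- labelled replicate 2. Among 22 inhibitors of myogenesis and Notch genes tested, 3 were higher and 0 lower. That share of higher genes did not exceed the 15.3% over all genes tested, of which 16.1% were lower. Dll1, a Notch ligand, was at 0.263 and 0.109 CPM against 17.9 and 21 CPM (6.66 ± 0.46, adjusted p = 5.02e-06). Notch2, one of its receptors, was at 220 CPM in both WT-labelled libraries and at 477 and 485 CPM in the others (1.13 ± 0.16, adjusted p = 4.04e-04). Msc, which encodes musculin, a repressor that competes at E-boxes, had 0 counts in both WT-labelled libraries and 119 and 46 counts in the others, which is at least 42.1-fold higher against a floor of 3 counts per library (adjusted p = 0.00272).

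Of 64 sarcomere genes tested of 75 listed, 42 were higher, 0 were lower and 22 did not pass, with a median log2 fold change of 2.59. Without any 1 of the 4 libraries, between 35 and 40 were higher. The 3 lists gave 13 of 19 myosin genes, 11 of 19 thin filament genes and 18 of 26 genes of the Z-disc and titin scaffold. Their summed level was 6563 and 4703 TPM under the WT label and 14465 and 13973 TPM under the MYOD-/- label. These sums include members that are not confined to muscle, such as the nonmuscle Myh9, at 417 and 424 TPM under the WT label. The Tpm1 transcript NM_024427 held 1257 and 473 TPM there. Acta1 was at 1.93 and 0.289 TPM under the WT label and at 210 and 185 TPM under the MYOD-/- label.

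Myh3, a heavy chain of embryonic muscle, was at 0.932 and 0.543 CPM in the WT-labelled libraries and at 208 and 238 CPM in the MYOD-/- labelled libraries (8.22 ± 0.67, adjusted p = 1.36e-05, edgeR). Myh1, an adult fast heavy chain, was at 0.0219 and 0.0271 CPM against 8.15 and 5.64 CPM (8.03 ± 1.30, adjusted p = 9.94e-04). Mylpf, the fast regulatory light chain, was at 1.83 and 1.45 CPM against 62.4 and 71 CPM (5.34 ± 0.36, adjusted p = 4.43e-06). In all of these the lower MYOD-/- labelled library was above the higher WT-labelled one. Myh9, the nonmuscle heavy chain, was at 1533 and 1698 CPM against 1673 and 2111 CPM and did not pass the test (0.23 ± 0.31, adjusted p = 0.607).

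Thin filament actins followed. Actc1, cardiac alpha-actin, which developing skeletal muscle also makes, was at 0.439 and 0.0543 CPM under the WT label and at 54.7 and 87.1 CPM under the MYOD-/- label (8.09 ± 1.11, adjusted p = 3.84e-04, edgeR). Acta1, skeletal alpha-actin, was at 1.24 and 0.204 CPM against 125 and 119 CPM (7.36 ± 1.23, adjusted p = 0.00116). Neb, the giant ruler protein nebulin, was at 0.526 and 0.231 CPM against 15.3 and 13.6 CPM (5.23 ± 0.48, adjusted p = 3.08e-05). The WT-labelled values of Acta1 and Actc1 differed more between replicates, as a ratio, than the MYOD-/- labelled ones did. Tnnc2, fast troponin C, was at 0.351 and 0.136 CPM against 11.9 and 12.1 CPM (5.58 ± 0.63, adjusted p = 1.13e-04). Tnnt1, slow troponin T, was at 22.8 and 2.8 CPM against 54.1 and 59.3 CPM and did not pass (2.14 ± 1.22, adjusted p = 0.207). In the scaffold list, Ttn, which encodes titin, was at 4.4 and 5.63 CPM against 423 and 669 CPM (6.77 ± 1.08, adjusted p = 9.39e-04). Pdlim3, which binds alpha-actinin at the Z-disc, was at 0.241 and 0.258 CPM against 330 and 291 CPM (10.27 ± 1.93, adjusted p = 0.00243). Des, the muscle intermediate filament protein desmin, was at 43.2 and 39.6 CPM against 22.6 and 22.7 CPM, so that its groups were apart in the other direction, without passing the test (-0.87 ± 0.70, adjusted p = 0.373). It passed in a fit of only the groups compared (-0.86 ± 0.13, adjusted p = 0.00473).

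**Figure D2:**
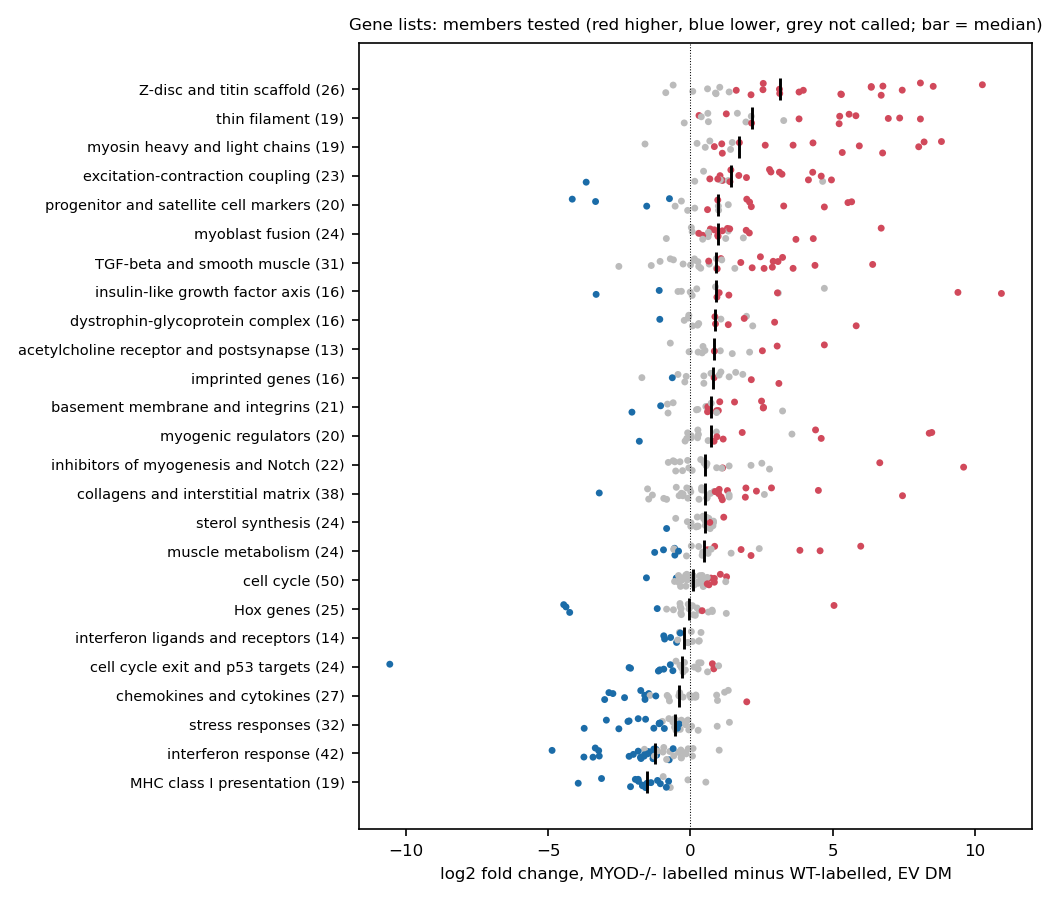
Log2 fold change (MYOD-/- labelled minus WT-labelled, EV DM) of each tested member of 25 gene lists, 1 row per list with its number of tested members, red for called higher, blue for called lower, grey for not called and a black bar for the median. The scaffold list has a median of 3.13 at the top and the MHC class I list one of -1.53 at the bottom.

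Of 23 genes of excitation-contraction coupling, 16 were higher and 1 was lower, with a median log2 fold change of 1.42. Ryr1, the calcium release channel of the sarcoplasmic reticulum, was at 1.12 and 0.977 CPM under the WT label and at 19.1 and 22.2 CPM under the MYOD-/- label (4.30 ± 0.34, adjusted p = 1.16e-05, edgeR). Casq2, a calcium-binding protein of the same store, was at 0.417 and 0.719 CPM against 20.8 and 14.4 CPM (4.96 ± 0.53, adjusted p = 8.28e-05). The lower gene was Clcn1, the muscle chloride channel, at 2.37 and 6.22 CPM against 0.422 and 0.25 CPM (-3.67 ± 0.54, adjusted p = 5.92e-04). Trdn, triadin, was at 20.7 and 1.74 CPM against 326 and 242 CPM and did not pass (4.65 ± 1.70, adjusted p = 0.0582). It passed in 5 of the alternative fits, among them DESeq2 (adjusted p = 0.0418). Among 13 genes of the acetylcholine receptor and postsynapse, 4 were higher and 0 lower, and 2 were higher without WT-labelled replicate 2. Chrna1, the receptor's alpha subunit, was at 71.2 and 66.5 CPM against 531 and 607 CPM (3.05 ± 0.57, adjusted p = 0.00231). Dok7, an activator of the receptor-clustering kinase MuSK, was at 0.0658 and 0.339 CPM against 3.68 and 6.69 CPM (4.71 ± 0.62, adjusted p = 2.90e-04). Chrnd, the delta subunit, was at 105 and 134 CPM against 214 and 279 CPM and did not pass (1.05 ± 0.78, adjusted p = 0.339), except in a fit of only the groups compared (1.06 ± 0.19, adjusted p = 0.00874).

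Of 24 fusion genes tested, 15 were higher and 0 lower, with a median of 0.96. Mymk, the fusion protein myomaker, was at 0.23 and 0.136 CPM under the WT label and at 20.3 and 19.1 CPM under the MYOD-/- label (6.71 ± 0.69, adjusted p = 1.02e-04, edgeR). Mymx, its partner myomixer, was at 0.515 and 0.122 CPM against 4.29 and 4.26 CPM (3.71 ± 0.70, adjusted p = 0.00295). Both fusion transcripts were thus low in each WT-labelled library. Of 16 genes of the dystrophin-glycoprotein complex, 6 were higher and 1 was lower. Dysf, the membrane repair protein dysferlin, was at 0.263 and 0.231 CPM against 12.3 and 16.2 CPM (5.83 ± 0.30, adjusted p = 1.23e-06).

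Muscle metabolism was mixed, with 7 of 24 genes higher and 5 lower. Pygm, muscle glycogen phosphorylase, was at 0.132 and 0.163 CPM under the WT label and at 7.73 and 11.1 CPM under the MYOD-/- label (5.99 ± 0.37, adjusted p = 2.78e-06, edgeR). Ckm, muscle creatine kinase, was at 0.285 and 0.0136 CPM against 3.58 and 3.85 CPM (4.56 ± 0.84, adjusted p = 0.00212). The lower genes included Ldha, a lactate dehydrogenase subunit, at 1126 and 993 CPM against 398 and 484 CPM (-1.26 ± 0.26, adjusted p = 0.00432). The higher genes numbered 4, 3 and 3 without WT-labelled replicate 1, WT-labelled replicate 2 and MYOD-/- labelled replicate 2, and the lower genes 3, 2 and 2 without WT-labelled replicates 1 and 2 and MYOD-/- labelled replicate 1. Of 50 cell cycle genes, 9 were higher and 2 lower, with a median of 0.10. The share higher was near the 15.3% over all genes tested, and the share lower was below their 16.1%. Ccnd1, the G1 cyclin D1, was at 202 and 250 CPM against 63.5 and 91.1 CPM (-1.55 ± 0.25, adjusted p = 0.00105). Rrm1, a ribonucleotide reductase subunit used in DNA synthesis, was at 107 and 118 CPM against 242 and 224 CPM (1.05 ± 0.13, adjusted p = 2.42e-04). Mki67, the proliferation marker Ki-67, was at 119 and 142 CPM against 195 and 153 CPM and did not pass (0.41 ± 0.21, adjusted p = 0.169). The cell cycle counts were 5 higher and 6 lower without WT-labelled replicate 1, and 4 higher without MYOD-/- labelled replicate 1. Lower counts of 1 were found without either replicate 2 library.

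The share of transcripts within genes also lay apart between the labels in Tpm2 and Tpm3, which encode tropomyosins that lie along actin. These shares are estimates of kallisto, were described with no test and were chosen after their values were seen from 16 genes examined. In Tpm2, transcript NM_009416 held 8.26% and 6.94% of the gene's TPM under the WT label and 45.3% and 38.8% under the MYOD-/- label. In Tpm3, transcript NM_022314 held 1.72% and 5.52e-05% against 39.6% and 43.7%, while NM_001253738 held 89.2% and 92.6% against 49.3% and 43.2%. For Ncam1, a cell adhesion gene, NM_010875 held 31% and 22.1% against 58% and 54.4%. In Pkm, pyruvate kinase, NM_011099 held 87.9% and 87% against 88% and 87.5%. In Tpm1, another tropomyosin gene, the main transcript NM_024427 held 89.1% and 77% against 86.3% and 83.6%. These shares for Tpm2, Tpm3 and Ncam1 did not overlap between the labels, and those for Pkm and the main Tpm1 transcript did. Another Tpm1 transcript, NM_001164248, was apart, at 3.44% and 4.5% against 8.13% and 9.76%. Examples from the other genes examined were NM_001037761 of Capzb (8.36% and 5.75% against 18.3% and 17.9%) and NM_008398 of Itga7 (46.1% and 35.4% against 57.3% and 53.5%). Another was NM_001039071 of Ldb3 (63.5% and 54.3% against 43.1% and 43.2%). Fxr1, Mef2d and Ttn each had a transcript that lay apart as well, so such shares were not particular to Tpm2, Tpm3 and Ncam1. How often shares lay apart over all transcripts was not counted.

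**Figure D3:**
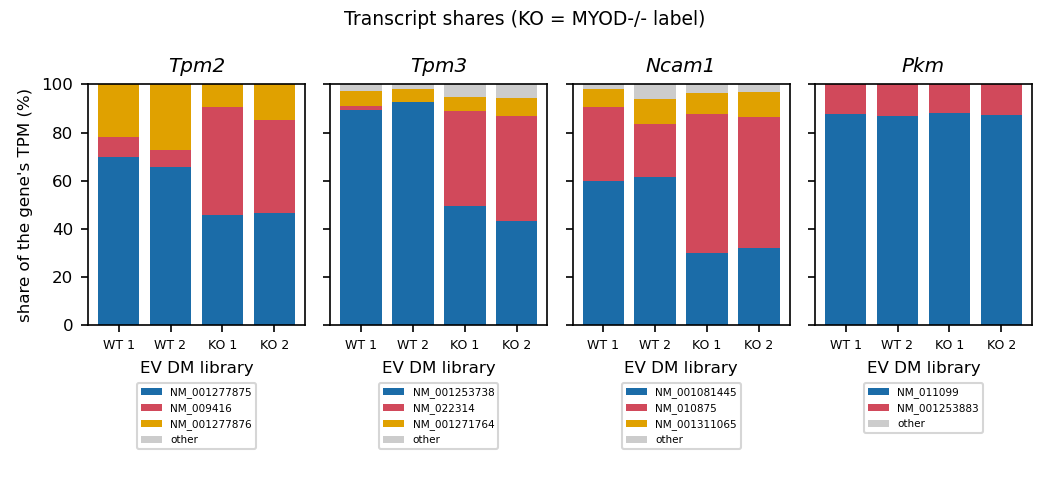
Share of each gene's TPM, in percent, held by its transcripts in the 4 differentiating EV libraries (KO stands for the MYOD-/- label). NM_022314 of Tpm3 is near the axis in the WT-labelled libraries and at 39.6% and 43.7% in the MYOD-/- labelled ones, while the shares of Pkm are level.

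Progenitor markers were split. Of 20 tested, 9 were higher and 4 lower. Cd34, a surface sialomucin of quiescent satellite cells, was at 2.53 and 2.47 CPM under the WT label and at 137 and 96 CPM under the MYOD-/- label (5.54 ± 0.66, adjusted p = 1.59e-04, edgeR). Cxcr4, the receptor for CXCL12, was at 0.164 and 0.217 CPM against 6.08 and 3.92 CPM (4.71 ± 0.48, adjusted p = 5.55e-05). Ly6a, which encodes the surface protein Sca-1, was at 2009 and 1984 CPM against 260 and 133 CPM (-3.34 ± 0.48, adjusted p = 4.89e-04). Ly6c1, of the same family, was at 706 and 750 CPM against 46.4 and 35.1 CPM (-4.16 ± 0.34, adjusted p = 1.48e-05). Close paralogs of the Ly6 family could have exchanged reads in the authors' counting. The higher genes numbered 5 without WT-labelled replicate 2, and the lower genes 2 without MYOD-/- labelled replicate 2.

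Of 16 genes of the insulin-like growth factor axis, 6 were higher and 2 lower. Igfbp2, a binding protein of the IGFs, had the largest fold change of the named genes with counts in every library, at 0.143 and 0.109 CPM under the WT label and at 259 and 248 CPM under the MYOD-/- label (10.94 ± 1.10, adjusted p = 5.20e-05, edgeR). Igfbp3 was at 0.121 and 0 CPM against 56.4 and 35.5 CPM (9.41 ± 1.21, adjusted p = 2.56e-04), and Igfbp7 at 7.85 and 5.73 CPM against 54.2 and 59.6 CPM (3.06 ± 0.53, adjusted p = 0.00152). Igfbp4 was lower, at 23.5 and 30.5 CPM against 3.51 and 1.91 CPM (-3.32 ± 0.45, adjusted p = 3.36e-04). Igfbp5, the binding protein that differentiating myoblasts secrete, was at 240 and 96.9 CPM against 3590 and 5242 CPM but did not pass (4.71 ± 1.71, adjusted p = 0.0564). It passed in 5 of the alternative fits, among them DESeq2 (adjusted p = 0.00185). The family thus held both directions. Lower counts of 1 were found without either replicate 2 library.

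In basement membrane and integrin genes 10 of 21 were higher and 2 lower. Col4a1 and Col4a2, the paired collagen IV chains, were higher. Col4a1 was at 197 and 136 CPM under the WT label and at 868 and 1012 CPM under the MYOD-/- label (2.50 ± 0.32, adjusted p = 2.43e-04, edgeR). Col4a2 was at 124 and 87 CPM against 572 and 672 CPM (2.56 ± 0.36, adjusted p = 4.66e-04). Hspg2, the proteoglycan perlecan, was at 559 and 562 CPM against 1581 and 1709 CPM (1.55 ± 0.23, adjusted p = 6.43e-04). One of the 2 lower genes was Itgb3, integrin beta 3, at 51.7 and 44.6 CPM against 11.3 and 11.8 CPM (-2.06 ± 0.44, adjusted p = 0.00511), and 1 lower gene was left without each of 3 libraries, all but WT-labelled replicate 1. In the collagen and interstitial matrix list 12 of 38 were higher and 1 lower. Lum, lumican, was at 1.27 and 0.136 CPM against 201 and 55.5 CPM (7.46 ± 1.34, adjusted p = 0.00185). Tnc, tenascin C, was at 213 and 214 CPM against 1077 and 1050 CPM (2.32 ± 0.36, adjusted p = 8.02e-04). The lower one was Fbln5, the elastic fibre protein fibulin 5, at 12.6 and 22.7 CPM against 2.55 and 1.28 CPM (-3.21 ± 0.52, past the threshold). The higher matrix genes numbered 3, 5 and 6 without WT-labelled replicate 2 and MYOD-/- labelled replicates 1 and 2.

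Of 31 genes of TGF-beta signalling and smooth muscle, 14 were higher and 0 lower. Acta2, smooth muscle alpha-actin, which early myoblasts also make, was at 318 and 219 CPM under the WT label and at 1918 and 2125 CPM under the MYOD-/- label (2.91 ± 0.52, adjusted p = 0.00185, edgeR). Tagln, the actin-binding protein transgelin, was at 7.41 and 5.85 CPM against 69.1 and 56 CPM (3.24 ± 0.40, adjusted p = 2.14e-04). In proliferating EV cells Tagln went the other way, at 174 and 148 CPM against 34.4 and 31.6 CPM (-2.28 ± 0.39, adjusted p = 0.00346, edgeR). In differentiating MUNC cells it was higher again (2.43 ± 0.39, adjusted p = 0.00122). Acta2 passed in neither (-0.84 ± 0.49 and 0.63 ± 0.49). Nog, the BMP antagonist noggin, was at 0.132 and 0.326 CPM against 19.5 and 18.7 CPM (6.41 ± 0.74, adjusted p = 1.34e-04). The count was 9, 6 and 7 without WT-labelled replicates 1 and 2 and MYOD-/- labelled replicate 1.

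The interferon response went the other way. Type I interferon signals through receptors and transcription factors that bind response elements made of repeated GAAA with a gap of 2 bases and switch on antiviral genes and antigen presentation. Of 42 response genes tested, 23 were lower and 0 higher in the MYOD-/- labelled libraries, with a median log2 fold change of -1.24. The count of lower genes was 15, 11 and 8 without WT-labelled replicate 2 and MYOD-/- labelled replicates 1 and 2. Oas1a, an oligoadenylate synthetase that senses double-stranded RNA, was at 334 and 361 CPM under the WT label and at 49.7 and 25.6 CPM under the MYOD-/- label (-3.21 ± 0.37, adjusted p = 1.42e-04, edgeR). Oas3, of the same family, was at 296 and 339 CPM against 28 and 19.3 CPM (-3.75 ± 0.45, adjusted p = 1.81e-04). Mx1, an antiviral dynamin-like GTPase, was at 75.1 and 92.2 CPM against 6.44 and 9.04 CPM (-3.43 ± 0.35, adjusted p = 5.27e-05). Rsad2, the antiviral enzyme viperin, was at 328 and 555 CPM against 32.9 and 53.4 CPM (-3.35 ± 0.64, adjusted p = 0.00269). Oas1a shares sequence with its neighbouring paralogs, so its counts are uncertain. Ifit3, another response gene, was at 1797 and 1666 CPM against 1368 and 1745 CPM, with overlapping groups (-0.15 ± 0.31, adjusted p = 0.737). Ifnb1, the interferon beta gene, was at 0.263 and 0.448 CPM against 0.249 and 0.66 CPM (0.37 ± 0.66, adjusted p = 0.71), and was chosen after its values were seen.

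Antigen presentation followed the same direction. Of 19 MHC class I genes, 15 were lower and 0 higher, with a median of -1.53, and between 10 and 13 were lower without any 1 of the 4 libraries. Psmb9, an immunoproteasome subunit, was at 16.4 and 15.3 CPM under the WT label and at 0.959 and 1.09 CPM under the MYOD-/- label (-3.95 ± 0.34, adjusted p = 3.30e-05, edgeR). H2-Q4, a nonclassical class I gene with close paralogs, was at 105 and 114 CPM against 14.3 and 10.7 CPM (-3.13 ± 0.19, adjusted p = 2.78e-06). B2m, the class I light chain, was at 2363 and 1819 CPM against 978 and 620 CPM (-1.39 ± 0.22, adjusted p = 9.82e-04). In chemokines and cytokines 9 of 27 were lower and 1 higher. Tnfsf10, the death ligand TRAIL, was at 10.3 and 9.65 CPM against 1.17 and 2.82 CPM (-2.32 ± 0.40, adjusted p = 0.00151). Ccl5, a chemokine for T cells, was at 71.6 and 204 CPM against 17 and 24.6 CPM (-2.73 ± 0.57, adjusted p = 0.00459), and its adjusted p was 0.056 without WT-labelled replicate 2 and 0.0516 without MYOD-/- labelled replicate 1. The 1 higher gene passed in none of the 4 fits without 1 library (0 genes in each), and the lower chemokine and cytokine genes numbered 3, 2 and 5 without WT-labelled replicate 2 and MYOD-/- labelled replicates 1 and 2.

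Stress genes were lower as well, with 14 of 32 lower and 0 higher at a median of -0.56. Trib3, a pseudokinase induced by ATF4 and CHOP, was at 83.8 and 149 CPM under the WT label and at 7.69 and 9.7 CPM under the MYOD-/- label (-3.74 ± 0.52, adjusted p = 4.14e-04, edgeR). Chac1, a glutathione-degrading enzyme of the same response, was at 73 and 134 CPM against 11 and 15.6 CPM (-2.96 ± 0.42, adjusted p = 4.42e-04). Ddit3, which encodes CHOP itself, was at 182 and 248 CPM against 48.1 and 45.4 CPM (-2.20 ± 0.24, adjusted p = 8.68e-05). WT-labelled replicate 2 was the highest library for each of these. Hspa5, the endoplasmic reticulum chaperone BiP, was at 912 and 1163 CPM against 814 and 640 CPM and did not pass (-0.51 ± 0.27, adjusted p = 0.168). Among 24 genes of cell cycle exit and p53 targets, 8 were lower and 2 higher, with 4 lower without WT-labelled replicate 2 and 4 without MYOD-/- labelled replicate 1, and 1 higher without either MYOD-/- labelled library. Gadd45a, a DNA damage response gene, was at 141 and 268 CPM against 49.5 and 44.9 CPM (-2.11 ± 0.41, adjusted p = 0.003). Cdkn1a, the cell cycle inhibitor p21, was at 302 and 373 CPM against 206 and 268 CPM and did not pass (-0.51 ± 0.20, adjusted p = 0.0806).

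Promoters of genes from the groups that moved in opposite directions are shown because they hold the motifs described above. They come from the RefSeq table of GRCm38.p6 and give the 250 bases before the start listed for the promoter, 5′ to 3′ on the gene's strand. For Oas3 that start lies inside the annotated gene, which reaches 120777684, so the last bases of its window overlap the gene. Chrna1 is at chr2:73580339-73580588 on the minus strand, Oas3 at chr5:120777660-120777909 on the minus strand and Rsad2 at chr12:26456453-26456702 on the minus strand. Capitals mark CAGCTG, one form of the E-box CANNTG, in Chrna1, where 1 further CANNTG is not marked, and GAAA, any 2 bases and GAAA, read on either strand, in Oas3 and Rsad2.
Chrna1: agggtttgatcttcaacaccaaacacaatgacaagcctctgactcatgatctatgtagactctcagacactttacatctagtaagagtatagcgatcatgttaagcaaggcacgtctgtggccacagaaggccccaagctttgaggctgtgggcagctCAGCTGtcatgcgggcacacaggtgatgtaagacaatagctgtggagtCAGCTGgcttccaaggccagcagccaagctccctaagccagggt
Oas3: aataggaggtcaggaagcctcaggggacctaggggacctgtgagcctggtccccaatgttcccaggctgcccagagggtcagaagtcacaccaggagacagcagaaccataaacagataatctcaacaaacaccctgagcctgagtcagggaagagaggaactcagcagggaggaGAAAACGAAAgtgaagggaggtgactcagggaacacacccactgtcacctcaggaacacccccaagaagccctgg
Rsad2: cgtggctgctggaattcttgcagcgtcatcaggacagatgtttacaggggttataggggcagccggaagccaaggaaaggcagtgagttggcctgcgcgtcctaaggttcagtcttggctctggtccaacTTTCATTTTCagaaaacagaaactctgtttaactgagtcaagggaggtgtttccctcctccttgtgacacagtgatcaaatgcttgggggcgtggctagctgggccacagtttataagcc
In Chrna1 the marked E-boxes begin 92 and 44 bases before the start. The interferon element begins 75 bases before it in Oas3 and 120 bases before it, on the opposite strand, in Rsad2.

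Of the 14972 genes tested, 11722 had a promoter in that table. CAGCTG, which reads the same on both strands and is one form of CANNTG, was in 12% of these, in 14.4% of the genes called higher, in 18.8% of those higher by more than 4-fold, in 14.4% of those lower by more than 4-fold and in 13 of 36 (36.1%) sarcomere genes called higher. CANNTG itself was in 58% of promoters tested, in 58.2% of the genes called higher, and in 66.4% and 66.1% of those higher and lower by more than 4-fold. The paired GAAA element on either strand, where matches could overlap each other, was in 2.7% of those tested, in 4.85% of the genes called lower and in 10 of 17 (58.8%) interferon response genes called lower. The CArG box bound by serum response factor was in 1.24% of promoters tested and in 4 of 36 (11.1%) of the sarcomere genes called higher. These are matches of letters in short windows, and no binding was measured.

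The same labels were also compared in other libraries, which share none with the comparison above. In differentiating MUNC cells 3400 genes passed (22.7%), 12.8% of genes tested higher and 9.89% lower, and in proliferating EV cells 1550 passed (10.4%), 4.58% higher and 5.77% lower. Of the genes called here, 1728 were also called in the MUNC cells (36.8% of those here and 50.8% of those there), 1285 in the same direction and 443 in the opposite one. With the proliferating EV cells 1140 were shared (24.3% and 73.5%), of which 24 were opposite. The genotype difference itself differed between the vectors for 2708 genes (18.1%) in the interaction test, 8.01% positive and 10.1% negative, and between the media for 387 (2.58%), 1.66% positive and 0.922% negative. Without 1 library the calls were 1593 to 2361 in the MUNC cells, 700 to 847 in the proliferating cells, 1514 to 2399 between the vectors and 57 to 333 between the media, where the highest was that without WT-labelled DM replicate 1.

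The interferon response turned over between the vectors. In the differentiating MUNC libraries 40 of 42 response genes were higher and 0 lower under the MYOD-/- label, with a median log2 fold change of 5.53, and the difference between vectors passed the test as negative for 40 genes and as positive for 1. Oas1a was at 0.118 and 0.0383 CPM in the WT-labelled MUNC libraries and at 27 and 36.6 CPM in the MYOD-/- labelled MUNC libraries, against 334 and 361 CPM and 49.7 and 25.6 CPM with the empty vector. The MYOD-/- labelled values of the vectors overlapped, and the WT-labelled values were far apart (log2 difference of differences -12.07 ± 0.68, adjusted p = 4.52e-06, edgeR). Ifit3, not called with the empty vector, was at 11.2 and 12.2 CPM under the WT label with MUNC and at 1022 and 1764 CPM under the MYOD-/- label (-7.05 ± 0.48, adjusted p = 6.27e-06). Gm45923, which includes what the vector makes, was at 2012 and 2670 CPM in the WT-labelled and at 43 and 50.4 CPM in the MYOD-/- labelled MUNC libraries, and its part in the difference was not tested. Of the 64 sarcomere genes, 37 were higher and 1 was lower in the MUNC libraries, and 33 were higher in both comparisons. The interaction test called 12 of these 64 genes higher by more with the empty vector than with MUNC (0 by less). In proliferating EV cells 7 were higher and 1 lower.

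**Figure D4:**
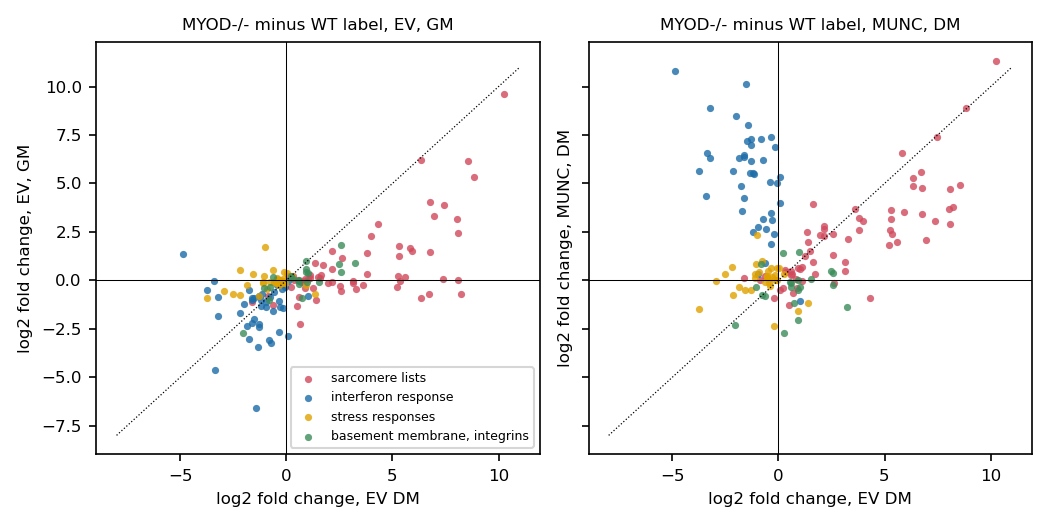
Log2 fold changes of the MYOD-/- label against the WT label in proliferating EV libraries (left, vertical axis) and in differentiating MUNC libraries (right, vertical axis) against those in differentiating EV libraries (horizontal axes), 1 point per gene of 6 lists. Interferon response genes lie mostly left of 0 in both panels, low on the left and high on the right (medians -1.15 and 5.53), while sarcomere genes lie mostly to the right of 0. Levels behind the left panel were low even under the WT label, with means of 0.184 CPM for Oas1a, 0.291 CPM for Mx1 and 3.59 CPM for Ifit3. The differentiating WT-labelled EV means were 348, 83.7 and 1731 CPM.

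Several of the largest changes set the WT-labelled EV DM libraries apart from the other differentiating libraries. Perp, a tetraspan protein of cell junctions and a p53 target, was at 17.1 and 17.3 CPM under the WT label and had 1 and 0 counts under the MYOD-/- label (adjusted p = 7.13e-06, edgeR). In the WT-labelled MUNC libraries it was at 0.0393 and 0 CPM. Bckdhb, a subunit of the branched-chain keto acid dehydrogenase, was at 8.58 and 9.16 CPM against 0.0959 and 0 CPM (-7.51 ± 0.74, adjusted p = 1.32e-04), and at 0.0393 and 0.0191 CPM in the WT-labelled MUNC libraries. Slfn2, a schlafen gene of immune cells, was at 114 and 49.2 CPM against 0.748 and 0.535 CPM (-6.99 ± 0.47, adjusted p = 4.27e-06), and at 0.275 and 0.258 CPM in the WT-labelled MUNC libraries. Tspan11, a tetraspanin, had 0 counts in both WT-labelled EV DM libraries and 154 and 294 counts in the MYOD-/- labelled ones, at least 111-fold higher against the floor of 3 counts per library (adjusted p = 2.23e-05). It was at 5.81 and 5.05 CPM in the WT-labelled MUNC libraries, above the MYOD-/- labelled ones there at 2.24 and 1.92 CPM. Dysf was at 12.8 and 15.4 CPM in the WT-labelled MUNC libraries, which overlaps its MYOD-/- labelled values with the empty vector. In the proliferating WT-labelled EV libraries Perp was at 24.8 and 19 CPM and Bckdhb at 12.6 and 10.4 CPM. Dysf was at 0.129 and 0.248 CPM there, and Tspan11 at 0 CPM in both. The levels of these genes under the WT label with the empty vector were thus not particular to differentiation, unlike that of Slfn2, at 0.663 and 0.42 CPM there.

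Igfbp2, Cd34, Itgb3 and Zfp704 differed between the genotype labels in the same direction with both vectors and in both media. Igfbp2 was at 0.746 and 0.00957 CPM in the WT-labelled and at 393 and 271 CPM in the MYOD-/- labelled MUNC libraries (log2 fold change 10.09, adjusted p = 6.15e-05, edgeR), and its log2 fold change in proliferating EV cells was 9.62 (adjusted p = 3.36e-04). Cd34 had log2 fold changes of 5.40 in the MUNC libraries (adjusted p = 1.78e-04) and 5.22 in proliferating cells (adjusted p = 5.25e-04). Itgb3 had -2.32 (adjusted p = 0.00366) and -2.71 (adjusted p = 0.00332). Zfp704, a zinc finger gene, was at 0.0548 and 0.122 CPM under the WT label and at 72.2 and 48.4 CPM under the MYOD-/- label here (9.43 ± 0.38, adjusted p = 5.73e-07), with log2 fold changes of 2.91 in the MUNC libraries and 6.68 in proliferating cells. Of 25 Hox genes tested, 2 were higher and 4 lower, with a median log2 fold change of -0.05. Neither share exceeded the 15.3% higher and 16.1% lower over all genes tested. The largest called change in that list was positive, at 5.05 for a gene of the Hoxc cluster. Hoxb3 and Hoxb6, which encode positional factors of the Hoxb cluster, were both lower here. Hoxb3 was at 2.79 and 2.23 CPM against 0.173 and 0.0535 CPM (-4.46 ± 0.77, adjusted p = 0.00144). Hoxb6 was at 0.691 and 0.923 CPM against 0.0192 and 0.0535 CPM (-4.38 ± 0.73, adjusted p = 0.00116). Their log2 fold changes in proliferating cells were -4.13 (adjusted p = 0.0102) and -4.51 (adjusted p = 0.00268), and neither passed in the MUNC libraries.

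Calls were unevenly spread over chromosomes. On chromosome 11, 31.8% of 1235 genes tested were lower and 8.26% higher, with a median log2 fold change of -0.32. Its median was -0.36 in proliferating EV cells and 0.03 in differentiating MUNC cells. On chromosome 16, 29.8% of 467 genes were higher and 9.85% lower, with a median of 0.27. The chromosome 11 median was -0.25 between the replicate 1 libraries and -0.29 between the replicate 2 libraries. Copy number was not measured, and its part in these values was not tested.

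**Figure D5:**
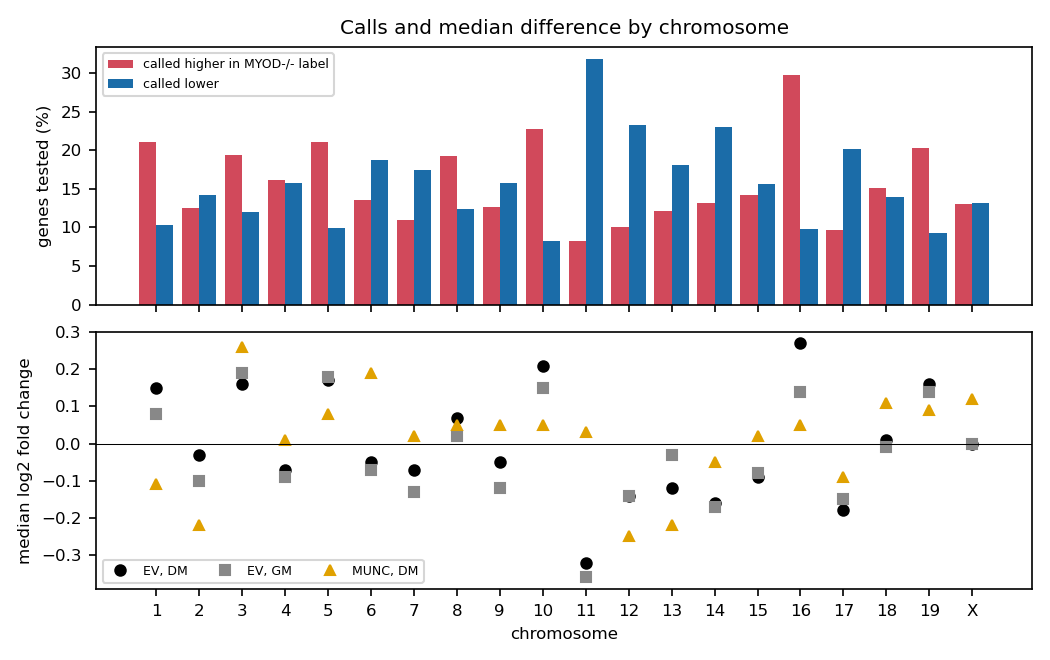
Upper panel, percent of the genes tested on each chromosome that were called higher (red) or lower (blue) under the MYOD-/- label in differentiating EV libraries. Lower panel, median log2 fold change per chromosome in differentiating EV, proliferating EV and differentiating MUNC libraries, with chromosome 11 at -0.32, -0.36 and 0.03.

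Markers of other cell types were examined in the same libraries, where 15.3% of all genes tested were higher and 16.1% lower. Of 11 fibroblast markers 8 passed the filter on low counts, 3 were higher and 0 lower, and their summed level was 6478 and 4216 TPM under the WT label against 10499 and 10382 TPM. Of 10 adipocyte markers 7 were tested and 2 were higher, with a sum of 16.4 and 19.5 TPM against 24.9 and 31.7 TPM. The 2 became 1 in every fit without 1 library except that without MYOD-/- labelled replicate 2. Of 11 osteogenic and chondrogenic markers 5 were tested and 1 was lower, with a sum of 3821 and 2890 TPM against 1654 and 1507 TPM, and 0 were lower without any library but WT-labelled replicate 2. Of 10 endothelial markers 5 were tested, 1 was higher and 1 lower, with a sum of 0.729 and 1 TPM against 4.64 and 2.21 TPM, and 0 were lower without replicate 2 of either label. Of 14 leukocyte markers 6 passed the filter on low counts, 4 were lower and 0 higher, and their summed level was 26.4 and 23.5 TPM under the WT label against 4.81 and 4.01 TPM. Cd53, a leukocyte tetraspanin, was at 21.9 and 19.3 CPM against 0.671 and 0.357 CPM (-5.32 ± 0.68, adjusted p = 2.47e-04, edgeR), and the count of lower markers was 1, 1 and 2 without WT-labelled replicate 2 and MYOD-/- labelled replicates 1 and 2. Ptprc, the pan-leukocyte marker CD45, had between 2 and 6 counts in each library and Cd52 had 0 in all. Of 11 epithelial markers 7 passed the filter and 4 were lower, with 43.9 and 34.1 TPM against 3.36 and 3.25 TPM. Krt8, a keratin of simple epithelia, was at 16.6 and 12.1 CPM against 0.843 and 1.09 CPM (-3.89 ± 0.48, adjusted p = 1.89e-04), and Epcam had 0 counts in all. Of 11 neural and glial markers 8 passed the filter, 1 was higher and 1 lower (0 lower without WT-labelled replicate 1 or either MYOD-/- labelled library), and the median log2 fold change was -0.32. Their sum was 10.3 and 11.6 TPM against 230 and 152 TPM, of which Tubb3 alone held 228 and 151 TPM. Tubb3, a beta-tubulin of neurons, was at 5.67 and 8.67 CPM against 165 and 118 CPM (4.31 ± 0.55, adjusted p = 2.46e-04). Among osteogenic and chondrogenic markers the lower one was Spp1, which is also in the chemokine and cytokine list. Spp1 was at 2315 and 1918 CPM against 919 and 904 CPM, far above every other marker of that list, so the list's sum mostly reflects Spp1. Sp7, Alpl, Ibsp, Acan and Comp had at most 4 counts in any of the libraries compared. Runx2 was at 44.1 and 57.8 CPM against 58 and 59.6 CPM and did not pass. Sox9, at 54 and 57.7 CPM against 41.5 and 45.2 CPM, did not pass either. The part of the markers of all these cell types in the results was not tested. Fewer cells of a type and less RNA per cell cannot be told apart in bulk libraries.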

How the data were processed

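Poly(A) RNA was purified with RNeasy columns and made into libraries with a directional NEBNext kit, per the labels' protocols. The submitters' processing notes name the tools bcl2fastq and kallisto and the build mm10. Neither versions nor a strand setting is given there, so reads of overlapping or antisense genes and of close paralogs could have been assigned to either. Per the file headers, the authors deposited for each library the estimated counts, the effective length and the TPM of each of 35818 transcripts.

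Estimated counts were summed per gene over RefSeq transcripts (GRCm38.p6, 35492 matched, and 188 through GENCODE M21) and rounded. The 138 transcripts without a symbol, with 0.28% to 0.941% of the counts, were left out, which gave 24497 genes. Replicates correlated at r = 0.988 (WT label) and 0.992 (MYOD-/- label) in log2 CPM across genes, which are not independent, and no replicate pair agreed within sampling noise. In R 4.3.3, edgeR 4.0.16 was run with TMM scaling, filterByExpr and 1 mean per group over all 16 libraries (14972 genes, 8 residual and 3.19 prior degrees of freedom, common dispersion 0.0474). The quasi-likelihood F test was adjusted by Benjamini-Hochberg over all 14972 genes, with a threshold of 0.05. Each ± in the report, called SE, is an approximation: the absolute log2 fold change divided by the square root of the test's F statistic. It is not an SE given by the fit, and it is unreliable where counts are near 0. On simulated counts for this comparison with 14972 genes, of which 200 were changed, 57% of 2-fold and 96% of 4-fold changes were recovered and 4.38% of calls were false. The changed genes were drawn only from those with a mean of at least 5 CPM, evenly in both directions. Counts were drawn independently at the fitted dispersions, and far fewer genes were changed than were called in the real data. These shares therefore need not hold for genes at lower counts or for the real calls.

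The members, gene lists, tests and naming rule were chosen with earlier results of these data known. The rule took Myod1 and MUNC, the 10 largest folds and differences in CPM each way, up to 6 called and 3 uncalled members of each list, the 5 largest interactions each way and the 5 largest opposite calls, and the text names examples. One selected gene is not reported here. Alternatives included DESeq2 1.42.0 and limma 3.58.1.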

Additional observations from a re-analysis of the deposited data

Results flagged for a closer look

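The genes below had a genotype difference (labelled MYOD-/- minus labelled WT) in differentiating EV cells that itself differed from the same difference in other libraries, by the interaction term of edgeR's quasi-likelihood test at an adjusted p of 0.05. Values are differences of log2 fold changes, and a positive value means that the difference was more positive in differentiating EV cells. No explanation was weighed.

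Against differentiating MUNC cells, the values among muscle genes, Notch ligand and MUNC were 6.17 for Gm45923, 6.03 for Dysf, 5.72 for Myod1, 5.47 for Dll1, 4.41 for Myh3 and 4.22 for Mymk. These were followed by 3.83 for Ckb, 3.76 for Ckm, 3.61 for Tnnc2, -3.49 for Clcn1, 3.42 for Neb, 2.95 for Mylpf and 2.68 for Myog. Smaller values were 2.65 for Pygm and 1.94 for Ryr1. Against differentiating MUNC cells, the values among interferon, antigen presentation and cytokine genes were -12.07 for Oas1a, -9.92 for Rsad2, -9.36 for Oas3, -8.72 for Psmb9, -8.51 for Slfn2, -7.78 for Mx1 and -7.05 for Ifit3. Next came -6.22 for Ccl5, -4.21 for H2-Q4, -4.13 for Tnfsf10, -4.05 for Ifnb1 and -3.04 for B2m. Against differentiating MUNC cells, the values among other genes were 12.40 for Tspan11, -10.59 for Perp, -8.82 for Bckdhb, 6.52 for Zfp704, 6.15 for Igfbp3, -4.76 for Krt8 and -4.72 for Ly6a. Then came -4.62 for Ly6c1, 4.32 for Cxcr4, 4.16 for Igfbp7, -2.92 for Chac1, -2.89 for Ddit3, 2.29 for Acta2 and -2.26 for Trib3. The remaining values were 2.19 for Col4a2, 2.01 for Col4a1, -2.01 for Gadd45a, -1.76 for Tnc and 1.47 for Hspg2.

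Against proliferating EV cells, the values among muscle genes, Notch ligand and MUNC were 8.94 for Myh3, 7.30 for Acta1, 5.57 for Neb, 5.41 for Tnnc2, 5.40 for Pygm, 5.38 for Mylpf and 5.22 for Casq2. Smaller still were 3.70 for Ckb and 2.92 for Ryr1. Against proliferating EV cells, the values among interferon, antigen presentation and cytokine genes were -5.99 for Slfn2, -3.40 for Mx1 and -1.76 for H2-Q4. Against proliferating EV cells, the values among other genes were -6.80 for Cd53, 5.52 for Tagln, 4.49 for Cxcr4, -4.28 for Ly6c1, 4.05 for Tubb3, 3.75 for Acta2 and -3.03 for Ly6a. The rest were -2.75 for Ddit3, 2.74 for Zfp704, -2.41 for Chac1, 2.12 for Col4a2, 2.11 for Tnc, 1.64 for Hspg2 and 1.04 for Rrm1.

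Where a group had 0 or 1 counts in all, as for Tspan11 and Perp, the fitted value depends on the prior count and is no bound.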

How the results depend on the processing

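Of the 71 named genes called, 70 stayed called without any 1 of the 4 libraries. The filter of 5 CPM left out 6 of them, and each stayed called in the same direction under those of the 9 other alternatives that tested it. Of the 13 named genes not called, 7 passed under at least 1 alternative. Directions turned only for uncalled genes. Myf5 was -0.03 when low counts were kept and -0.00 in DESeq2. Without 1 library, Myf5 was between -0.07 and 0.05, Gm45923 between -1.22 and 2.63 and Ifnb1 between -0.50 and 0.86.

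In differentiating EV cells, calls ranged from 2606 to 3822 without 1 library, where the lone library is assumed to vary like the other groups, and from 3641 to 6014 under other settings, and 2492 passed an adjusted p of 0.01. In proliferating EV cells 324 genes were called in a fit of only the groups compared, 659 at 0.01 and 700 to 847 without 1 library. In differentiating MUNC cells the counts were 1762 at 0.01 and 1593 to 2361 without 1 library. Interaction calls between vectors were 1264 at 0.01 and 1514 to 2399 without 1 library. Those between media were 160 in a fit of only the groups compared, 977 with DESeq2, 1046 with limma, 56 at 0.01 and 57 to 333 without 1 library. The cause of these shifts was not tested.

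Groups share replicate numbers, and the labels do not say what a number marks. As a hint from the data, Zrsr1 held 1.49% to 13% of the counts in replicate 2 libraries and at most 0.0344% in replicate 1 libraries of all 8 groups. Deviations of same-numbered libraries correlated at 0.3 here, and at -0.0126 to 0.712 over the 28 pairs of groups. With the replicate number as a block the calls were 6014 in differentiating EV cells, 2405 in proliferating EV cells, 4633 in MUNC cells, 898 between media and 3852 between vectors, and Tnnt1 (adjusted p = 0.0284), Trdn (0.00543), Igfbp5 (0.0111) and Hspa5 (0.0451) passed. Only 2 libraries a group limit all of these values.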
